A study of Homo sapiens with 18 samples.

Results

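A set of 43 genes of the hypoxia response and of glycolysis was followed through breast epithelial cells that had or had not been transformed by the Src oncoprotein and had or had not received triptolide (TPL). The genes were taken by name from the RNA-Seq files, where all 43 were found among the 21714 genes listed, and the entries of a gene were summed. The cells were MCF10A-Er-Src, a line derived from non-tumorigenic human breast epithelium in which v-Src, fused to the oestrogen receptor, is switched on by tamoxifen. NT cells had no tamoxifen and TAM cells had been transformed with it, so all 4 groups carry the fusion gene and none is a patient's tumour. Each kind of cell was incubated for 4 h with DMSO (groups NT and TAM) or with TPL (groups NT+TPL and TAM+TPL). RNA-Seq comprised 2 biological replicates per group, and a list of RNA polymerase II (RNAPII) ChIP-Seq peaks holding a transcription start site (TSS) was given for each group.

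The hypoxia-inducible factors (HIFs) are dimers of an oxygen-labile alpha subunit, HIF-1 alpha (HIF1A) or HIF-2 alpha (EPAS1), with the stable partner ARNT. In the presence of oxygen, prolyl hydroxylases such as EGLN1 and EGLN3 mark the alpha subunit, VHL directs its destruction and HIF1AN blocks its transactivation domain. HIFs bind a short core motif and raise the transcripts of angiogenic factors, pH regulators, glucose transporters and most glycolytic enzymes, a programme that many tumours keep on in oxygen. TPL binds the XPB subunit of TFIIH, which opens DNA at promoters, and transcripts with short half-lives are generally the first to be lost.

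The RNA-Seq libraries held 7461309 to 8349448 expected counts, and 15763 genes, all 43 members among them, passed the filter on low counts. CA9, with 0 to 5 counts in the NT and NT+TPL libraries, passed it through the transformed cells alone, so its level there is described without a test. Libraries of the same group differed by more than counting error, most of all the NT+TPL pair, with a chi-square of 29.1 per degree of freedom against 6.57 to 10.8 in the other groups. The basal keratin KRT5 lay at 434 to 6250 FPKM, and of the leukocyte markers PTPRC reached at most 2.14 FPKM. CD68, a lysosomal protein of macrophages in the same list, lay at 47.1 to 47.2 FPKM in NT, 76.98 to 88.96 in NT+TPL, 281 to 301 in TAM and 407 to 473 in the TAM+TPL libraries. The summed level of the 6 basal epithelial markers was 10740 to 11370 FPKM with DMSO and 5762 to 7837 with TPL in NT cells, and 5862 to 6327 against 3034 to 3326 in TAM cells. The sum was mostly KRT5 and KRT6A, and its members did not move together. At an adjusted p of 0.05 in edgeR, KRT5, KRT14, KRT6A and TP63 fell with TPL in NT cells. There ITGB4 rose and EGFR did not pass the test. In TAM cells KRT5, KRT6A and TP63 fell and the others did not pass. With DMSO, KRT5, KRT14 and ITGB4 were lower in TAM than NT cells, and KRT6A, TP63 and EGFR did not pass. All 6 were detected, and the part of these markers in the differences described here was not tested. All values are relative to the rest of the library, and a fall shared by every transcript would not show. The study describes the replicates as independent biological ones, and the tests measure the spread between them. Fewer cells of a type and less RNA per cell cannot be told apart.

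Promoters are shown for the 6 members with the largest changes among those called at the study's thresholds (adjusted p no higher than 0.001, log2 fold change of 1.2 or more either way) whose window holds the HIF core, ACGTG or GCGTG read on either strand. The sequences are RefSeq's 250 bases before the start, found by exact match in GRCh37, the build of the peak lists (hg19), and capitals mark each core match. DDIT4, on the plus strand of chr10:74033432-74033681, encodes an inhibitor of mTORC1 signalling and has 3 matches. ENO2, on the plus strand of chr12:7023494-7023743, encodes the neuronal isoform of enolase and has 1. ALDOC, on the minus strand of chr17:26903914-26904163, encodes the brain isoform of aldolase and has 5, of which 2 overlap in a palindrome read on both strands. ADM, on the plus strand of chr11:10326370-10326619, encodes the vasodilator adrenomedullin and has 1. PFKFB3, on the plus strand of chr10:6244645-6244894, encodes the kinase that makes the activator of phosphofructokinase and has 2, again a palindrome. HIF1A, on the plus strand of chr14:62161981-62162230, has 1.
DDIT4: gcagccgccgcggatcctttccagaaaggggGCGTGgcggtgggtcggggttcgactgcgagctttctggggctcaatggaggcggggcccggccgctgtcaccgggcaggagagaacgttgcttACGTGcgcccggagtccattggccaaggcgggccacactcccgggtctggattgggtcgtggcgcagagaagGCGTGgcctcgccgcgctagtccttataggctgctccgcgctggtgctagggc
ENO2: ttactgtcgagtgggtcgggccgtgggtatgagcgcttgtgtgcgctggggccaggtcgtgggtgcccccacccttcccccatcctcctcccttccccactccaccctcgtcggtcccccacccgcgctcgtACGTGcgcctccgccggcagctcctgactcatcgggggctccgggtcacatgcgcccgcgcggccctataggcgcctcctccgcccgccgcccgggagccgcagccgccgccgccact
ALDOC: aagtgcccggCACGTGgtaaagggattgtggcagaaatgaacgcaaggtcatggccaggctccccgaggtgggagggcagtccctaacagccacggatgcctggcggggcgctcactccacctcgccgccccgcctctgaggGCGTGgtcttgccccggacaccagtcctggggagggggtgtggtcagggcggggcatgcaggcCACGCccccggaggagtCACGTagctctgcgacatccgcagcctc
ADM: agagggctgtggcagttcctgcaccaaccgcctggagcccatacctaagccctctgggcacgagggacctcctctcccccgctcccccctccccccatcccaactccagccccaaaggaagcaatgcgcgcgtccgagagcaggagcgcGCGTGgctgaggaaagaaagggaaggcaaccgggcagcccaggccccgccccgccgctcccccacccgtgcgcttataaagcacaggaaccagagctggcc
PFKFB3: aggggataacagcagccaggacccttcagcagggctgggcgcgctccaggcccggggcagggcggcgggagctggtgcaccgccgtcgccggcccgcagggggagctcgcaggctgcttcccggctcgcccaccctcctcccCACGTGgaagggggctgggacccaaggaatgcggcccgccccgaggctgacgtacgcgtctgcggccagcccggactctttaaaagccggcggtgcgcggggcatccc
HIF1A: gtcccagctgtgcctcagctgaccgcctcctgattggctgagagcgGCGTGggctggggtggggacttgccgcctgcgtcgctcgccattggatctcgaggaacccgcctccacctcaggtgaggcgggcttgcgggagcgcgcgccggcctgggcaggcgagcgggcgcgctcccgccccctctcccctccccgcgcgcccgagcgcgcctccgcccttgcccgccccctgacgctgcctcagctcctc

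Windows of 300 bases, with 50 bases past the start, were held for 37 members, and 29 of the 37 (78.4%) contained the core. It was found in 48.4% of all 35116 RefSeq windows and in 58.8% of those of the genes tested. The members' share counts only the window nearest the main TSS of each, whereas these shares count every window, so the units differ. BNIP3 and LDHA had 6 matches each, the most of any member, whereas EGLN3, ARNT, HIF1AN, P4HA2, PFKM, PFKP, TPI1 and PGAM1 had none. The windows of P4HA2, PFKM, PFKP and PGAM1 lie 762, 3283, 422 and 1627 bases from the main TSS used for the peaks, so their lack of a match does not concern that start. A match is a description of the letters and not a measured binding site. VHL, VEGFA, NDRG1, BNIP3L, SLC2A3 and PFKFB2 were without a window.

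The first question was how TPL changed these transcripts in each kind of cell. In NT cells DDIT4, HIF1A, PDK1, HK2 and ADM fell and ALDOC, EGLN3 and PFKFB3 rose, at the study's thresholds. These were 3 rises (6.98% of the members, against 4.33% of all genes tested) and 5 falls (11.6%, against 8.39%). In TAM cells DDIT4, ADM, HIF1A, ARNT and PDK1 fell and ALDOC and PFKFB2 rose at the same thresholds, which is 2 rises (background 3.92%) and 5 falls (background 7.31%). At the wider limit of an adjusted p of 0.05, 15 members rose and 9 fell in NT cells, against 23.5% and 24.1% of all genes. In TAM cells 5 rose and 13 fell, against 20.4% and 23.5%. The median log2 fold change of the members was 0.27 in NT cells, beside 0.10 for all genes, and -0.19 in TAM cells, beside 0.05.

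The split in NT cells depended on the scaling. It was 20 rises and 8 falls with upper-quartile scaling, which raised the median of all genes by 0.22, and 6 rises and 14 falls when libraries were set to equal GAPDH, which lowered it by 0.35. In TAM cells it was 9 and 10 (median of all genes raised by 0.24) or 3 and 14 (lowered by 0.12). Each of the 8 and 7 calls at the study's thresholds kept its direction and an adjusted p of at most 0.05 in every alternative fit that gave a value, of 20 run. At the strict thresholds the number of calls was 3 without NT replicate 2 and 2 with only the compared groups fitted in NT cells. In TAM cells it was 2 whenever 1 of the 4 TAM and TAM+TPL libraries was left out.

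**Figure D1:**
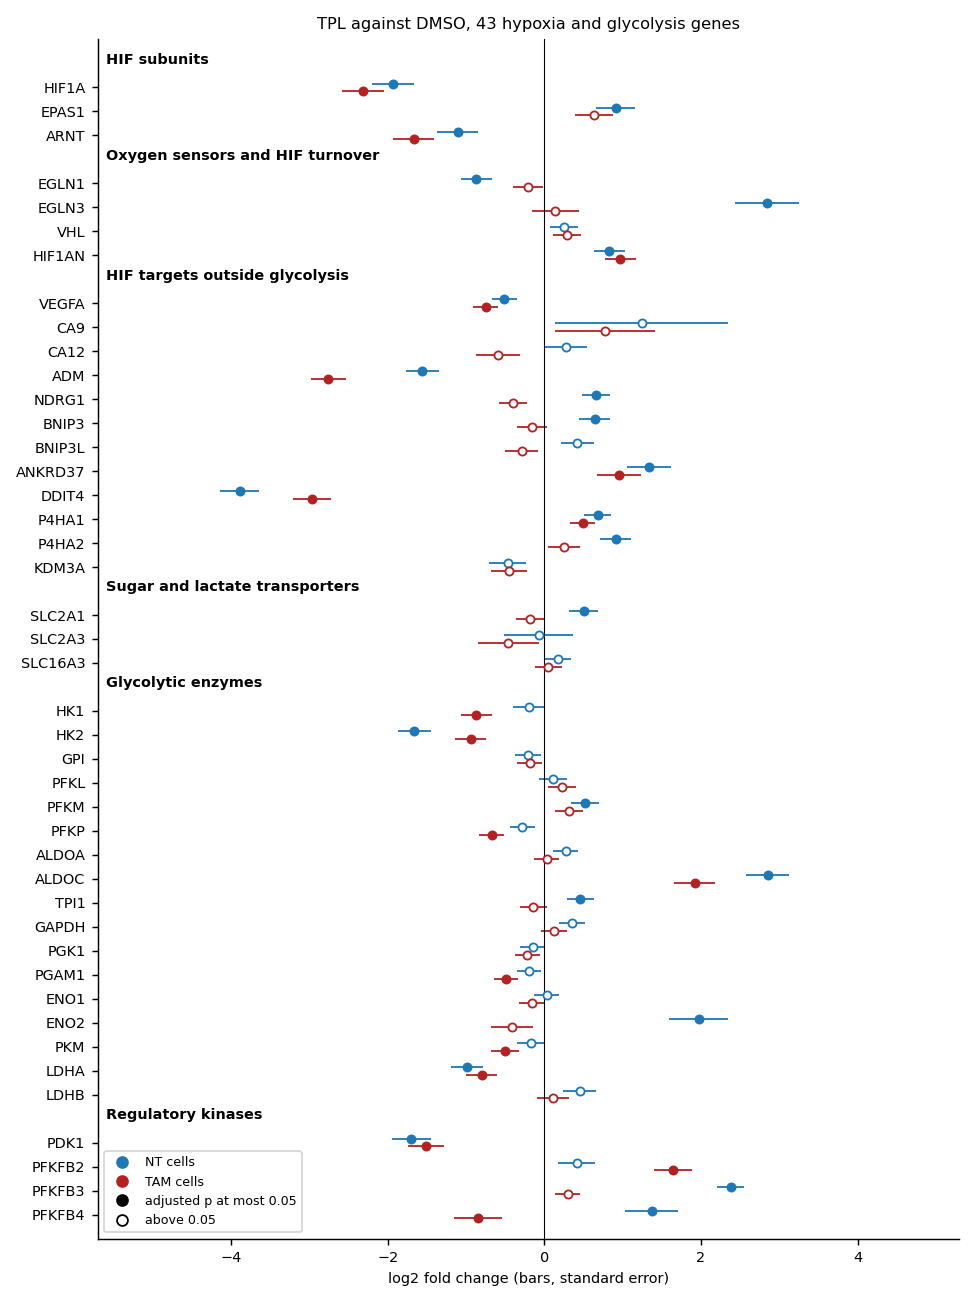
Log2 fold change with TPL (horizontal axis, bars are standard errors) for each of the 43 members in NT cells (blue) and TAM cells (red), with filled points at an adjusted p of at most 0.05. HIF1A, DDIT4, ADM and PDK1 lie left of 0 in both, ALDOC lies right of 0 in both, and EGLN3, ENO2 and PFKFB3 lie right of 0 in NT cells and near 0 in TAM cells.

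HIF1A stood at 42.5 and 65.2 FPKM with DMSO and 18.9 and 9.83 with TPL in NT cells, and at 175 and 180 against 36.3 and 37.1 in TAM cells. Neither TPL pair overlapped its DMSO pair, and the TAM+TPL libraries lay below both NT libraries. The log2 fold change with TPL was -1.93 ± 0.27 (SE) in NT cells (adjusted p = 0.000188) and -2.32 ± 0.27 in TAM cells (adjusted p = 6.18e-05), by the quasi-likelihood test of edgeR with Benjamini-Hochberg adjustment. HIF1A was 1.74 ± 0.26 higher on the log2 scale in TAM than in NT cells with DMSO (adjusted p = 0.00104), which missed the study's limit on p. With TPL it was 1.35 ± 0.27 higher (adjusted p = 0.00659), a call that had an adjusted p of 0.0526 without TAM+TPL replicate 2. An antisense gene, HIF1A-AS1, starts within the same peak, and, as strand was not stated, its reads cannot be told apart from those of HIF1A.

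EPAS1 went the other way. It was at 22.1 and 31.3 FPKM with DMSO against 63.8 and 37.5 with TPL in NT cells, and at 95.6 and 77.3 against 127 and 149 in TAM cells. Both TPL pairs lay above their DMSO pairs. The rise was 0.91 ± 0.25 on the log2 scale in NT cells (adjusted p = 0.0109) and the difference in TAM cells was 0.63 ± 0.24 (adjusted p = 0.0559). The NT call was lost without NT replicate 1, without NT+TPL replicate 1 and with equal GAPDH, where its adjusted p reached 0.139 at most. TAM cells had more EPAS1 mRNA than NT cells with DMSO (1.71 ± 0.25, adjusted p = 0.000834) and with TPL (1.43 ± 0.25, adjusted p = 0.00291). The ratio of EPAS1 to HIF1A in FPKM, a level per length, was 0.520 and 0.481 with DMSO against 3.38 and 3.81 with TPL in NT cells. In TAM cells it was 0.546 and 0.429 against 3.50 and 4.02. Every TPL library thus held more EPAS1 than HIF1A mRNA, and every DMSO library less.

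ARNT, the shared partner, stood at 7.02 and 9.77 FPKM with DMSO and 5.03 and 2.85 with TPL in NT cells, and at 10.8 and 9.29 against 3.04 and 3.46 in TAM cells. It fell by 1.67 ± 0.26 on the log2 scale in TAM cells (adjusted p = 0.000448) and by 1.11 in NT cells (adjusted p = 0.00468, and 0.0534 without NT replicate 2). ARNT did not pass the test between TAM and NT cells, with 0.27 ± 0.25 with DMSO and -0.29 ± 0.27 with TPL.

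Among the oxygen sensors, EGLN3, the hydroxylase that HIF itself induces, was at 0.730 and 0.230 FPKM with DMSO (14 and 5 counts) against 2.66 and 3.57 with TPL in NT cells, and at 6.77 and 7.84 against 7.27 and 9.44 in TAM cells. No NT+TPL library reached the level of any TAM or TAM+TPL library. EGLN3 rose with TPL in NT cells by 2.84 ± 0.41 (log2, adjusted p = 0.000255), whereas in TAM cells the change was 0.14 ± 0.30 (adjusted p = 0.71). The TAM cells had 4.09 ± 0.40 more on the log2 scale than NT cells with DMSO (adjusted p = 4.28e-05) and 1.39 ± 0.31 more with TPL (adjusted p = 0.014, and above 0.05 without TAM+TPL replicate 2).

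HIF1AN, the asparaginyl hydroxylase, was at 3.98 and 4.29 FPKM with DMSO and 8.82 and 6.03 with TPL in NT cells, and at 3.66 and 3.07 against 6.92 and 6.76 in TAM cells. It rose in NT (0.83 ± 0.20, adjusted p = 0.00557) and TAM cells (0.97 ± 0.20, adjusted p = 0.00264), the NT call being lost with equal GAPDH. EGLN1, the main hydroxylase in normal oxygen, fell in NT cells (-0.87 ± 0.20, adjusted p = 0.00417) and had -0.21 ± 0.19 in TAM cells. VHL passed the test in no comparison, with log2 differences between -0.03 and 0.29.

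Of the 12 HIF targets outside glycolysis, 5 rose and 3 fell with TPL in NT cells and 2 rose and 3 fell in TAM cells, beside 23.5% and 24.1% of all genes in NT and 20.4% and 23.5% in TAM cells. ADM was at 23.6 and 25.6 FPKM with DMSO against 8.38 and 8.33 with TPL in NT cells, and at 30.0 and 37.5 against 4.51 and 5.74 in TAM cells. Its fall was 1.56 on the log2 scale in NT cells (adjusted p = 0.000134) and 2.76 in TAM cells (adjusted p = 5.22e-06). DDIT4 stood at 58.2 and 62.7 FPKM in NT and 66.9 and 61.6 in TAM cells with DMSO, but at 5.43 and 2.79 and at 9.08 and 7.84 with TPL. This was a 14.8-fold fall in NT cells (log2 -3.89 ± 0.25, adjusted p = 1.63e-06) and a 7.85-fold fall in TAM cells (-2.97 ± 0.24, adjusted p = 5.54e-06), the largest of any member in either. ADM and DDIT4 did not pass the test between TAM and NT cells with DMSO (0.47 ± 0.19 and 0.10 ± 0.21).

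VEGFA, the angiogenic growth factor, was at 17.9 and 19.1 FPKM with DMSO and 13.5 and 11.8 with TPL in NT cells, and at 74.0 and 74.6 against 44.1 and 42.2 in TAM cells. The 4 pairs did not overlap, and the TAM+TPL libraries remained above both NT libraries. VEGFA was 3.98-fold higher in TAM than in NT cells with DMSO (log2 1.99 ± 0.16, adjusted p = 1.02e-05) and 3.36-fold higher with TPL (1.75 ± 0.16, adjusted p = 3.3e-05). It was the only member called at the study's thresholds between TAM and NT cells with TPL. With TPL it fell by 0.75 ± 0.16 in TAM cells (adjusted p = 0.00274) and by 0.51 in NT cells (adjusted p = 0.0236), where the call was lost without NT replicate 2 or NT+TPL replicate 2.

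NDRG1, a stress-responsive target, was at 231 and 259 FPKM with DMSO against 454 and 327 with TPL in NT cells, and at 727 and 692 against 584 and 522 in TAM cells. It was higher in TAM than NT cells with DMSO (1.55 ± 0.19, adjusted p = 0.000192) and rose with TPL in NT cells (0.66 ± 0.18, adjusted p = 0.0119, lost without NT replicate 1 and in 2 other fits). In TAM cells its change was -0.40 ± 0.18 (adjusted p = 0.0898). ANKRD37, an ankyrin-repeat HIF target, was at 4.35 and 5.94 FPKM with DMSO and 14.4 and 11.9 with TPL in NT cells, and at 6.40 and 5.77 against 11.0 and 13.4 in TAM cells. ANKRD37 rose with TPL in NT (1.34 ± 0.28, adjusted p = 0.00285) and TAM cells (0.95 ± 0.28, adjusted p = 0.0174), the latter call being lost without either TAM library or TAM+TPL replicate 2.

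CA9 and CA12 are carbonic anhydrases, which regulate pH. CA9 was at 0 and 0.240 FPKM with DMSO against 0.170 and 0.420 with TPL in NT cells, and at 1.15 and 1.62 against 3.09 and 1.81 in TAM cells. These levels rest on 0 to 5 counts in NT and NT+TPL and 15 to 36 in TAM and TAM+TPL libraries. CA12 was at 18.8 and 19.3 FPKM with DMSO and 15.6 and 30.5 with TPL in NT cells, and at 11.9 and 11.6 against 7.34 and 8.63 in TAM cells. CA12 was lower in TAM than in NT cells with TPL (-1.57 ± 0.28, adjusted p = 0.00337, and 0.0601 without TAM+TPL replicate 1). P4HA2, a collagen prolyl hydroxylase, was at 12.2 and 13.5 FPKM with DMSO against 28.3 and 19.7 with TPL in NT cells, and at 12.8 and 11.3 against 13.6 and 16.3 in TAM cells. It rose with TPL in NT cells (0.91 ± 0.20, adjusted p = 0.00375), a call lost with equal GAPDH.

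Of the rest, P4HA1 rose with TPL in NT (0.68 ± 0.17) and TAM cells (0.49 ± 0.16), with adjusted p of 0.00658 and 0.03, both lost with equal GAPDH and on leaving out single libraries. BNIP3, a mitophagy receptor, rose with TPL in NT cells (0.64 ± 0.20, adjusted p = 0.0215, lost without either NT library) and was higher in TAM than in NT cells with DMSO (1.16 ± 0.20, adjusted p = 0.00259, and 0.0683 at most among the alternatives). Its relative BNIP3L and the histone demethylase KDM3A passed the test in no comparison.

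**Figure D2:**
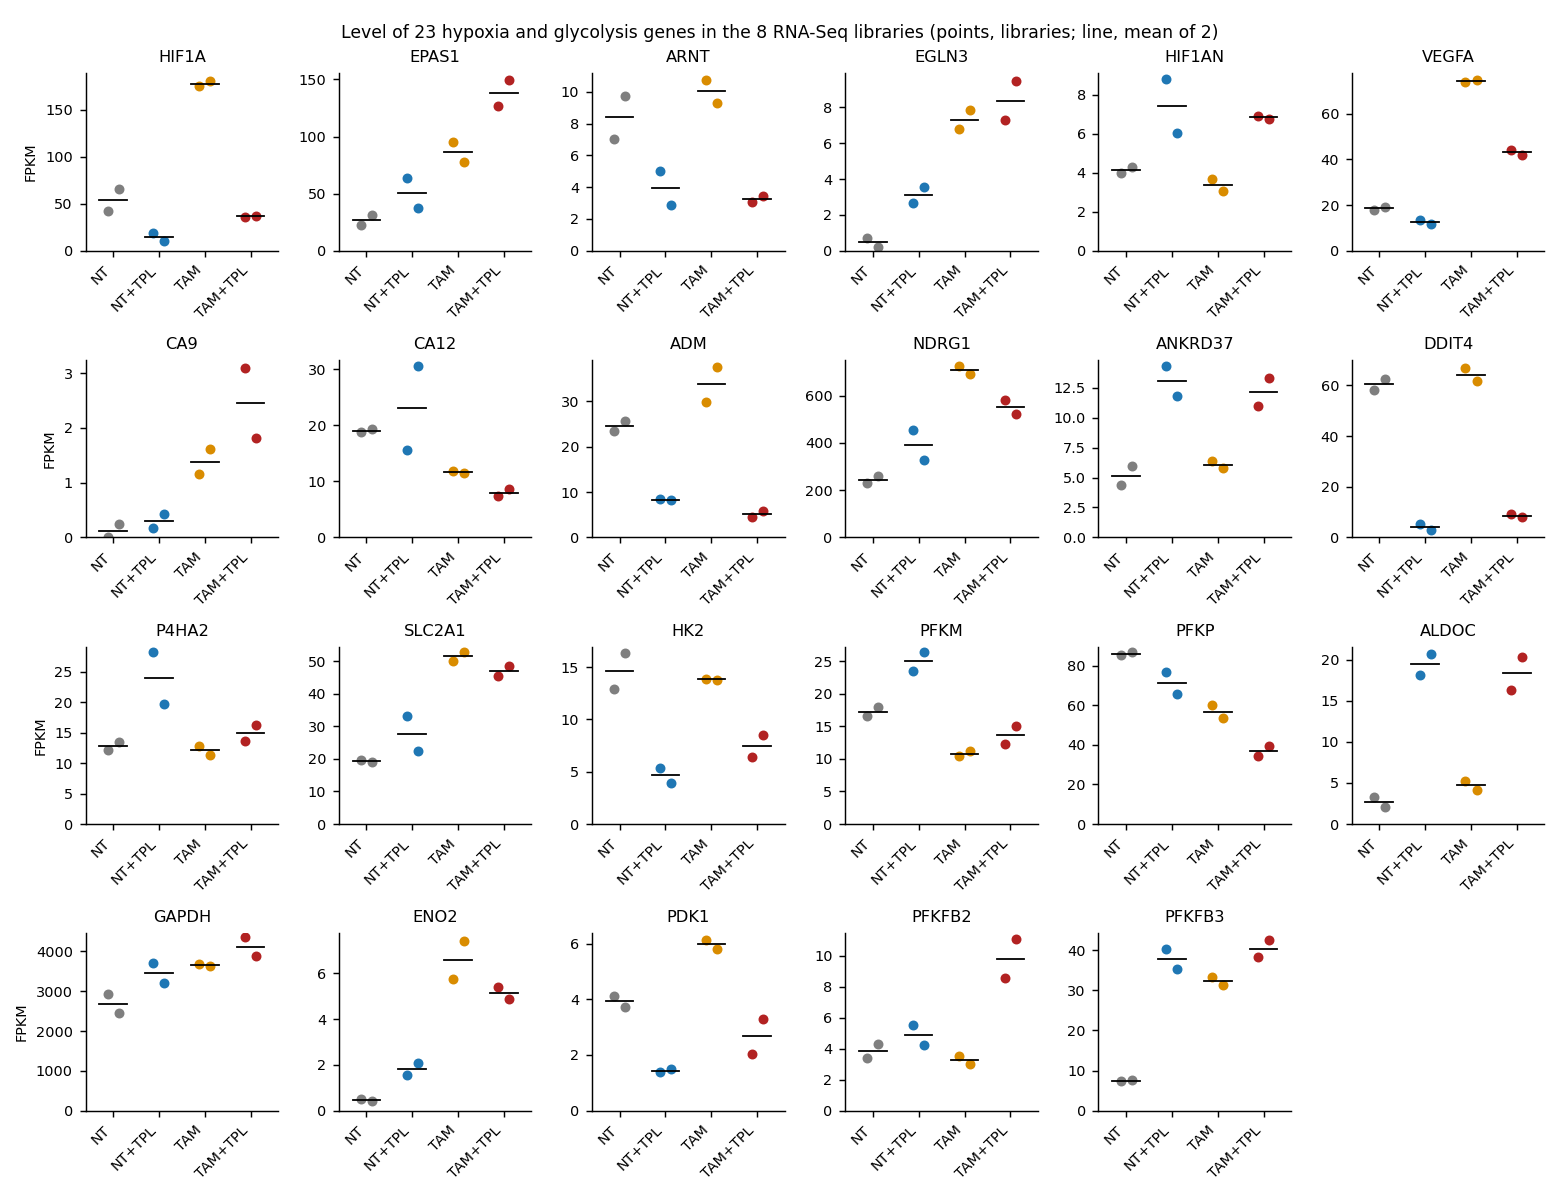
Level in FPKM (vertical axes, each panel from 0) of the 23 members printed in full, in the 2 libraries (points) and their mean (line) of each group. HIF1A is highest in the TAM libraries and falls in both TPL groups, EPAS1 is highest with TPL in TAM cells, and PFKFB3 is low in the NT libraries alone.

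Of the 3 transporters, the glucose carrier SLC2A1 was at 19.7 and 19.0 FPKM with DMSO and 33.1 and 22.3 with TPL in NT cells, and at 50.1 and 52.8 against 45.4 and 48.5 in TAM cells. TAM cells had more than NT cells with DMSO (1.42 ± 0.19, adjusted p = 0.000364) and with TPL (0.74 ± 0.18, adjusted p = 0.0222, lost without either TAM library among others). It rose by 0.50 ± 0.18 with TPL in NT cells (adjusted p = 0.0425), a call lost in 14 of the 20 alternatives. SLC2A3, another glucose carrier on 17.6 to 77.7 counts, and the lactate exporter SLC16A3 passed the test in no comparison.

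The glycolytic enzymes as a group held 1.21% to 1.47% of the counts in every library, with the TAM pair highest at 1.44% and 1.47%. Of the 17 enzymes, 4 rose (ALDOC, ENO2, PFKM and TPI1) and 2 fell (HK2 and LDHA) with TPL in NT cells. In TAM cells 1 rose (ALDOC) and 6 fell (HK1, HK2, LDHA, PFKP, PGAM1 and PKM). The 4 rises are 23.5% of the enzymes, the same share as among all genes in NT cells, and the 6 falls 35.3%, beside 23.5% in TAM cells. Their median log2 fold changes were 0.03 and -0.19. The PFKM and TPI1 calls were lost without either NT library, and those of PGAM1 and PKM on leaving out any 1 of the 4 TAM and TAM+TPL libraries. Over all 20 alternative fits, the PFKM call was lost in 8, TPI1 in 12, PGAM1 in 5 and PKM in 13. Those of PKM included library-size and upper-quartile scaling and limma on either pseudocount. Several abundant housekeeping forms did not pass the test in either kind of cell, with ENO1 at 0.03 ± 0.16 and -0.16 ± 0.16, PGK1 at -0.15 ± 0.16 and -0.22 ± 0.16, and GPI at -0.21 ± 0.16 and -0.19 ± 0.16. PFKL, ALDOA and LDHB also passed the test in no comparison. Reads of GAPDH, PGK1, LDHA and other abundant enzymes can be shared with processed pseudogenes and are uncertain to that extent.

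GAPDH, the reference transcript of many qRT-PCR assays, was at 2934 and 2443 FPKM with DMSO against 3708 and 3197 with TPL in NT cells, and at 3677 and 3634 against 4364 and 3877 in TAM cells. Both NT libraries were below all others. GAPDH differed by 0.35 ± 0.17 (adjusted p = 0.109) and 0.12 ± 0.17 with TPL in NT and TAM cells and by 0.46 ± 0.17 (adjusted p = 0.128) and 0.23 ± 0.17 between TAM and NT cells with DMSO and TPL.

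The share of the minor isoenzyme differed between groups. ALDOC was at 3.27 and 2.08 FPKM with DMSO and 18.2 and 20.7 with TPL in NT cells, and at 5.19 and 4.19 against 16.3 and 20.4 in TAM cells. It rose 7.22-fold in NT cells (log2 2.85 ± 0.28, adjusted p = 1.59e-05) and 3.78-fold in TAM cells (1.92 ± 0.26, adjusted p = 0.000172). ALDOC mRNA was 0.315% to 0.615% of the ALDOA and ALDOC sum in the DMSO libraries and 1.71% to 2.51% in the TPL libraries. ENO2 was at 0.510 and 0.410 FPKM with DMSO (10.01 and 8.01 counts) against 1.55 and 2.06 with TPL in NT cells, and at 5.76 and 7.40 against 5.39 and 4.89 in TAM cells. ENO2 was 14.3-fold higher in TAM than NT cells with DMSO (log2 3.84 ± 0.35, adjusted p = 2.55e-05) and rose with TPL in NT cells (1.97 ± 0.38, adjusted p = 0.00156), while TAM cells showed -0.41 ± 0.27.

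HK2, the inducible hexokinase, was at 12.9 and 16.4 FPKM with DMSO and 5.36 and 3.96 with TPL in NT cells, and at 13.9 and 13.8 against 6.44 and 8.52 in TAM cells. It fell by 1.66 ± 0.21 in NT cells (adjusted p = 8.67e-05) and by 0.94 ± 0.20 in TAM cells (adjusted p = 0.00336, and 0.0533 without TAM+TPL replicate 1). As a share of the HK1 and HK2 sum it went from 29.8% and 35.3% in NT to 14.1% and 16.1% in NT+TPL, but was 29.8% and 32.8% with DMSO against 27.9% and 32.3% with TPL in TAM cells, where HK1 fell too (-0.87 ± 0.20, adjusted p = 0.00466). LDHA, which makes lactate, stood at 1035 and 943 FPKM with DMSO against 598 and 391 with TPL in NT cells, and at 1034 and 1176 against 703 and 584 in TAM cells. It fell by 0.99 ± 0.20 in NT cells (adjusted p = 0.00198) and by 0.80 ± 0.20 in TAM cells (adjusted p = 0.00709, and 0.0794 at most on leaving out a library). The LDHA to LDHB ratio was 5.94 and 5.47 in NT, 3.07 and 1.4 in NT+TPL libraries. It was 6.65 and 6.67 in TAM against 4.26 and 2.83 in TAM+TPL libraries, so that no TPL library overlapped the DMSO libraries.

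PFKM and PFKP, which with PFKL form the phosphofructokinases, were lower in transformed cells. PFKM was at 16.6 and 18.0 FPKM with DMSO against 23.6 and 26.5 with TPL in NT cells, and at 10.4 and 11.2 against 12.4 and 15.1 in TAM cells. PFKP was at 85.3 and 87.1 FPKM with DMSO and 76.8 and 66.0 with TPL in NT cells, and at 59.9 and 53.7 against 34.3 and 39.7 in TAM cells. The differences passed the test with DMSO (-0.68 ± 0.18 for PFKM and -0.59 ± 0.16 for PFKP, adjusted p = 0.0332 and 0.0346) and with TPL (-0.89 ± 0.18 and -0.98 ± 0.16, adjusted p = 0.00776 and 0.00215). The DMSO calls were lost when any NT or TAM library was left out, and the TPL calls without TAM+TPL replicate 1.

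**Figure D3:**
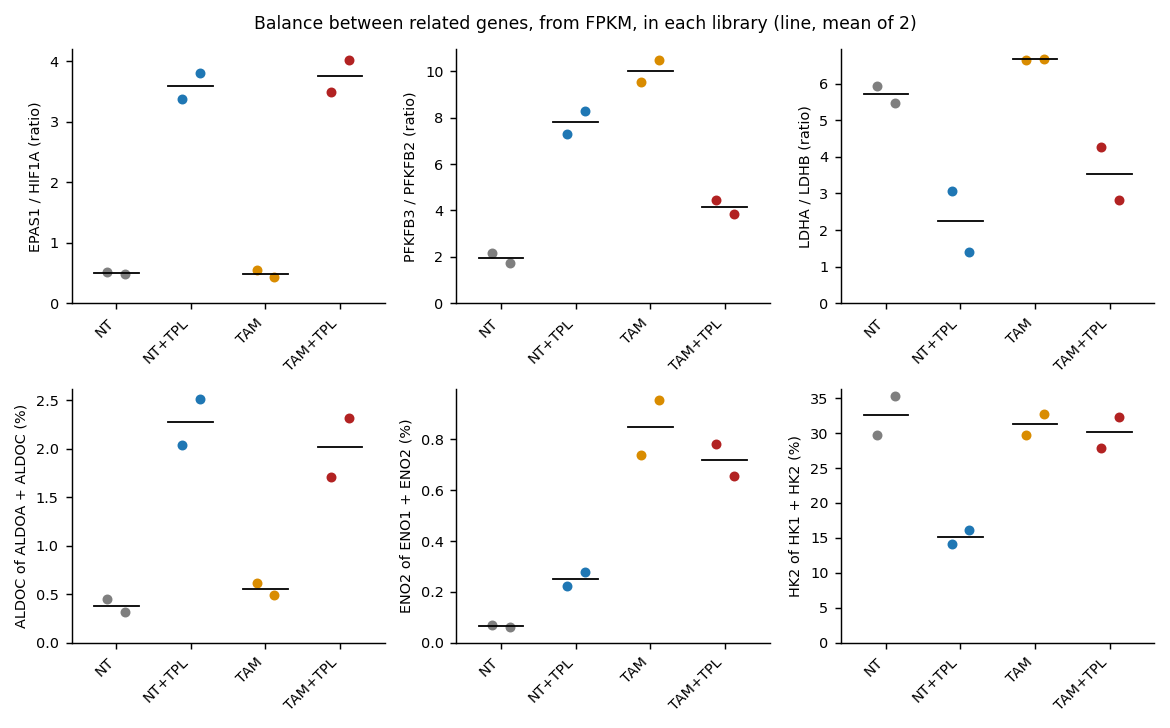
Ratios or shares of FPKM between related members (vertical axes, from 0) in the 2 libraries of each group (points) with their mean (line). EPAS1 exceeds HIF1A in the 4 TPL libraries alone, and the ALDOC share is above 1.7% in the same 4 libraries.

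Of the 4 regulatory kinases, 2 rose and 1 fell with TPL in NT cells, and 1 rose and 2 fell in TAM cells, where 23.5% and 24.1%, and 20.4% and 23.5%, of all genes did. PFKFB3 was at 7.46 and 7.56 FPKM with DMSO against 40.2 and 35.4 with TPL in NT cells, and at 33.4 and 31.3 against 38.3 and 42.5 in TAM cells. The NT libraries were low and the other 6 lay together. PFKFB3 rose 5.19-fold with TPL in NT cells (log2 2.38 ± 0.17, adjusted p = 2.09e-06) and was 4.44-fold higher in TAM than NT cells with DMSO (2.15 ± 0.17, adjusted p = 7.11e-06). With TPL in TAM cells the change was 0.30 ± 0.16 (adjusted p = 0.141), and TAM and NT cells with TPL differed by 0.07 ± 0.16. PFKFB2, a paralogue, was at 3.42 and 4.32 FPKM with DMSO and 5.51 and 4.27 with TPL in NT cells, and at 3.51 and 2.99 against 8.59 and 11.1 in TAM cells. It rose in TAM cells (1.64 ± 0.24, adjusted p = 0.00026) and had 0.41 ± 0.24 in NT cells.

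PDK1, which restrains pyruvate dehydrogenase, was at 4.13 and 3.74 FPKM with DMSO against 1.39 and 1.49 with TPL in NT cells, and at 6.14 and 5.81 against 2.05 and 3.28 in TAM cells. It fell by 1.70 ± 0.25 in NT cells (adjusted p = 0.000248) and by 1.51 ± 0.23 in TAM cells (adjusted p = 0.000415). PFKFB4, found through 4 transcript entries with 21 to 98 counts, rose with TPL in NT cells (1.37 ± 0.34, adjusted p = 0.0063) and fell in TAM cells (-0.85 ± 0.31, adjusted p = 0.0435). The NT call was lost in 1 of 19 alternative fits, the one without NT replicate 2. The TAM call was lost in 10 of 19, among them DESeq2, upper-quartile scaling, the replicate block and the fit without TAM replicate 1.

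The difference between the TPL effects in TAM and NT cells was tested as an interaction. PFKFB3 (-2.08 ± 0.23, adjusted p = 0.0024), EGLN3 (-2.70 ± 0.52, adjusted p = 0.0407) and ENO2 (-2.37 ± 0.47, adjusted p = 0.0422) had a smaller log2 change in TAM cells. These 3 of 43 compare with 0.368% of all genes with a lower and 0.482% with a higher change in TAM cells, a direction in which no member passed. None of the 43 was past the study's thresholds, which 0.00634% of all genes passed in the lower and 0.0127% in the higher direction. By unadjusted p under 0.05, 14 members had a lower and 4 a higher change in TAM cells, and DESeq2 called 1 member, PFKFB3, at the thresholds. The PFKFB3 difference kept an adjusted p of at most 0.05 in every alternative fit that gave one. The EGLN3 and ENO2 differences, on low NT counts, did not, and reached 0.202 and 0.227. PFKFB4 (-2.22 ± 0.46, adjusted p = 0.0504) missed the limit. At 0.05 the numbers were 7 lower and 2 higher without NT+TPL replicate 1, and 7 lower without NT+TPL replicate 2.

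The second question was how transformation changed these genes. With DMSO, EGLN3, ENO2, PFKFB3, VEGFA, EPAS1, NDRG1 and SLC2A1 were higher in TAM than in NT cells at the study's thresholds, and no member was lower (3 were at an unadjusted p under 0.05, and none with DESeq2 at these thresholds). These 7 members are 16.3% of the set, whereas 1.46% of all genes were higher and 1.48% lower. As the members were chosen with earlier results of these data known, the shares are a description and not a test of the pathway. With CA9 left out, at an adjusted p of 0.05, 11 of 42 members were higher and 2 lower, against 5.16% and 5.59% of all genes. The HIF subunits had 2 of 3 higher, the targets outside glycolysis without CA9 4 of 11 and the kinases 2 of 4, whereas of the 17 glycolytic enzymes ENO2 alone was higher. The median of the members was 0.27 beside -0.03 for all genes. With equal GAPDH, which moved the median of all genes by -0.47, the split at 0.05 over all 43 was 10 higher and 6 lower, and the calls at the study's thresholds were 4. That number was 3 without TAM replicate 2 and 4 without TAM replicate 1 or either NT library.

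With TPL, 1 member (VEGFA) was higher at the study's thresholds and none lower, against 1.11% and 1.48% of all genes. DESeq2 called 3 higher (VEGFA, EPAS1 and HIF1A) and 1 lower (CA12), and edgeR had 8 lower at an unadjusted p under 0.05. Again without CA9, at an adjusted p of 0.05, 10 of 42 were higher and 4 lower, against 4.82% and 7.06%. The 10 included HIF1A, EPAS1, EGLN1 (1.04 ± 0.20, adjusted p = 0.00533), PFKFB2 (0.95 ± 0.23, adjusted p = 0.0199) and DDIT4 (1.02 ± 0.26, adjusted p = 0.0256). The 4 lower were CA12, P4HA2, PFKM and PFKP. Of these calls, only those of VEGFA and EPAS1 kept an adjusted p of at most 0.05 when each library was left out in turn. The split over all 43 was 7 higher and 8 lower with equal GAPDH, which moved the median of all genes by -0.23. The 2 TAM against NT comparisons and the 2 TPL comparisons share libraries.

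**Figure D4:**
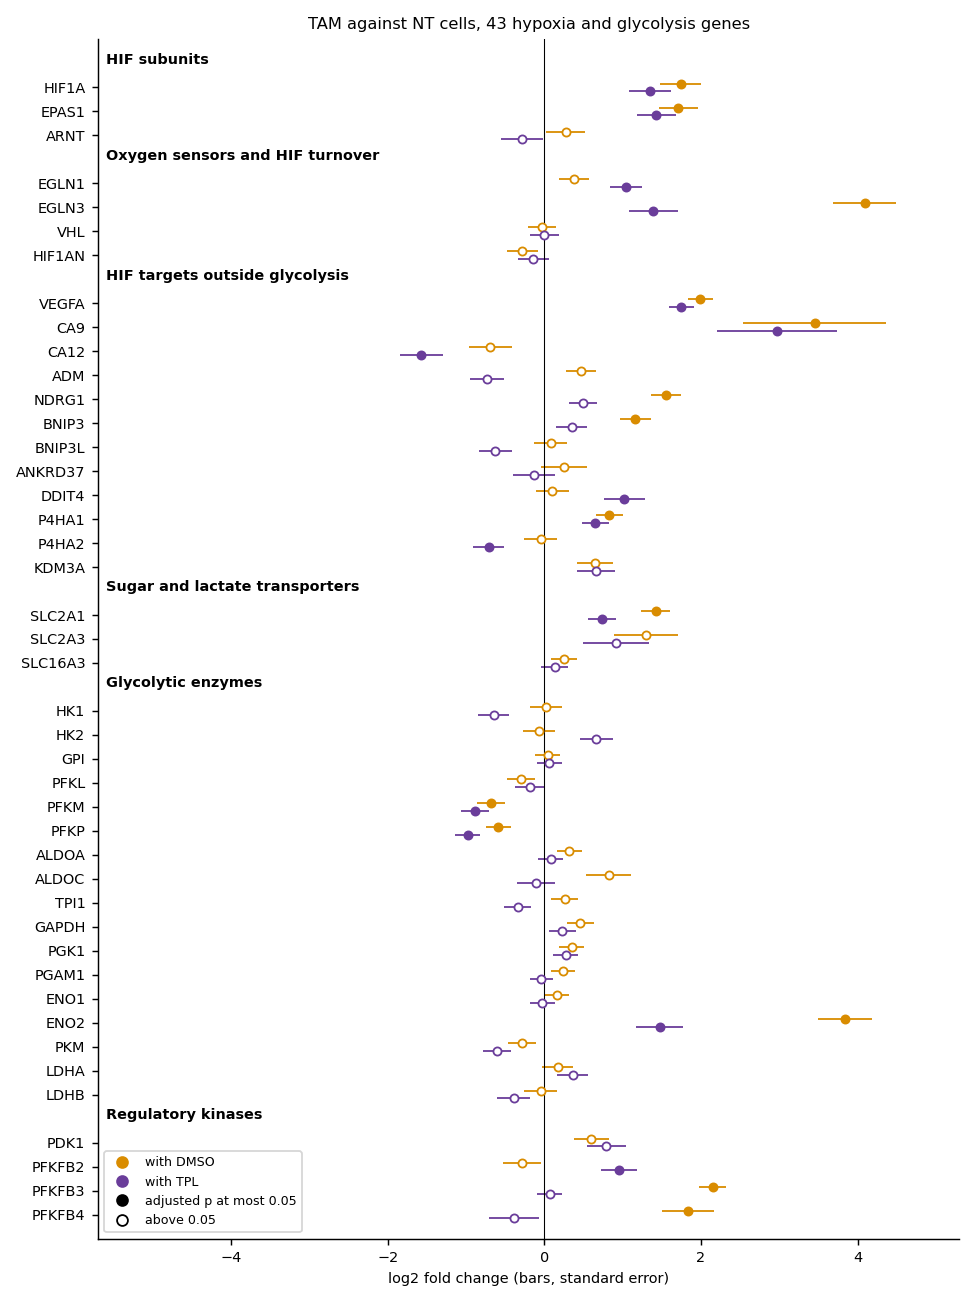
Log2 fold change of TAM against NT cells (horizontal axis, bars are standard errors) for each of the 43 members with DMSO (orange) and with TPL (purple), with filled points at an adjusted p of at most 0.05. VEGFA, EPAS1 and HIF1A lie right of 0 in both, and PFKFB3 lies at 2.15 with DMSO and at 0.07 with TPL. CA9 is drawn but not counted as called.

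RNAPII peaks were read from a single list per group with no score and no replicate lists, so they are described without a test. In NT cells 35 of the 43 members had a TSS within a peak with DMSO (67.3% of all tested genes with a TSS) and 31 with TPL (54.1%). In TAM cells the numbers were 38 (61.3%) and 33 (53.2%). EGLN1, CA9, BNIP3L, SLC2A3 and HK2 had no peak in any list. With TPL, 5 of the 35 NT peaks were gone (EGLN3, CA12, P4HA2, HK1 and PFKP), against 22% of all genes with a peak there. Of the 38 TAM peaks, 5 were gone (CA12, P4HA2, PFKP, ENO2 and PFKFB4), against 18.9%. ALDOC had a peak with TPL but not DMSO in NT cells, as did 2.98% of all genes with a peak in NT+TPL, and no member gained a peak in TAM cells (6.54%). ALDOC, ENO2 and PFKFB4 had a peak in TAM and none in NT cells (2.98%), and no member the reverse (11.7%). PFKM was counted in every list, but outside NT only through another TSS, in a peak that also held a start of SENP1.

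Peaks over the main TSS were shorter with TPL at several genes whose mRNA fell. The VEGFA peak spanned 4267 bases in NT but 307 in NT+TPL, and 5784 in TAM but 321 in TAM+TPL. The DDIT4 peak had 5291 bases with DMSO and 557 with TPL in NT cells, and 5234 and 551 bases in TAM cells. At ADM it went from 2028 to 554 and from 6488 to 501 bases, and at LDHA from 7418 to 404 and from 4342 to 782. Within the extent of the DMSO peaks, separate peaks over other TSSs of the gene remained with TPL. At LDHA these had 540 bases in NT+TPL and 740 in TAM+TPL, and at VEGFA 210 bases in NT+TPL. The long ADM peaks also held the start of ADM-DT, the TAM one that of AMPD3 too, and every ADM peak a start of SBF2. The TAM peak of ADM, the DMSO peaks of DDIT4 and the NT peak of ENO1 ran past the end of the gene. Their widths are thus not of the gene alone. ENO1, whose mRNA did not pass the test, had 23919 bases with DMSO and 1140 with TPL in NT cells, and 3876 against 1637 in TAM cells, where a second peak of 6470 bases lay further into the gene. Shorter peaks were thus not limited to transcripts that fell. At PDK1 the main TSS lay in a peak of 1529 bases in NT, while in NT+TPL a peak of 267 bases held another PDK1 TSS and ended just before the main one, and the main TSS lay in 1305 bases in TAM and 576 in TAM+TPL. NDRG1 had 1338 and 425 bases in NT and NT+TPL, and 16640 and 2764 in TAM and TAM+TPL.

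HIF1A, whose mRNA fell, had a peak of 952 and 1082 bases in NT and NT+TPL, and of 4143 and 1611 in TAM and TAM+TPL. EPAS1, with 535 and 367 bases in NT cells, had 602 bases in TAM and 3283 in TAM+TPL. The PFKFB3 peak was 467 bases long with DMSO and 910 with TPL in NT cells, and 2142 against 2291 in TAM cells, shortest where its mRNA was lowest. EGLN3, whose mRNA also rose with TPL in NT cells, had a peak of 289 bases in NT and none over a TSS in NT+TPL, a loss that ends when a peak within 1000 bases is accepted. At ALDOC the peak was 594 bases long in NT+TPL, 289 in TAM, and 315 with TPL in the latter, and it covered all 5 core motifs shown above in NT+TPL and 3 of them in TAM and TAM+TPL. The downstream edge was nearer the TSS with TPL at 20 of 28 members with a peak in both NT lists, against 60.2% of all such genes, and at 24 of 32 in the TAM lists, against 44.8%. The TAM list names its peaks with another cutoff and 4584 sub-peak letters, so its widths and those of the other lists may differ for that reason, which was not tested.

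**Figure D5:**
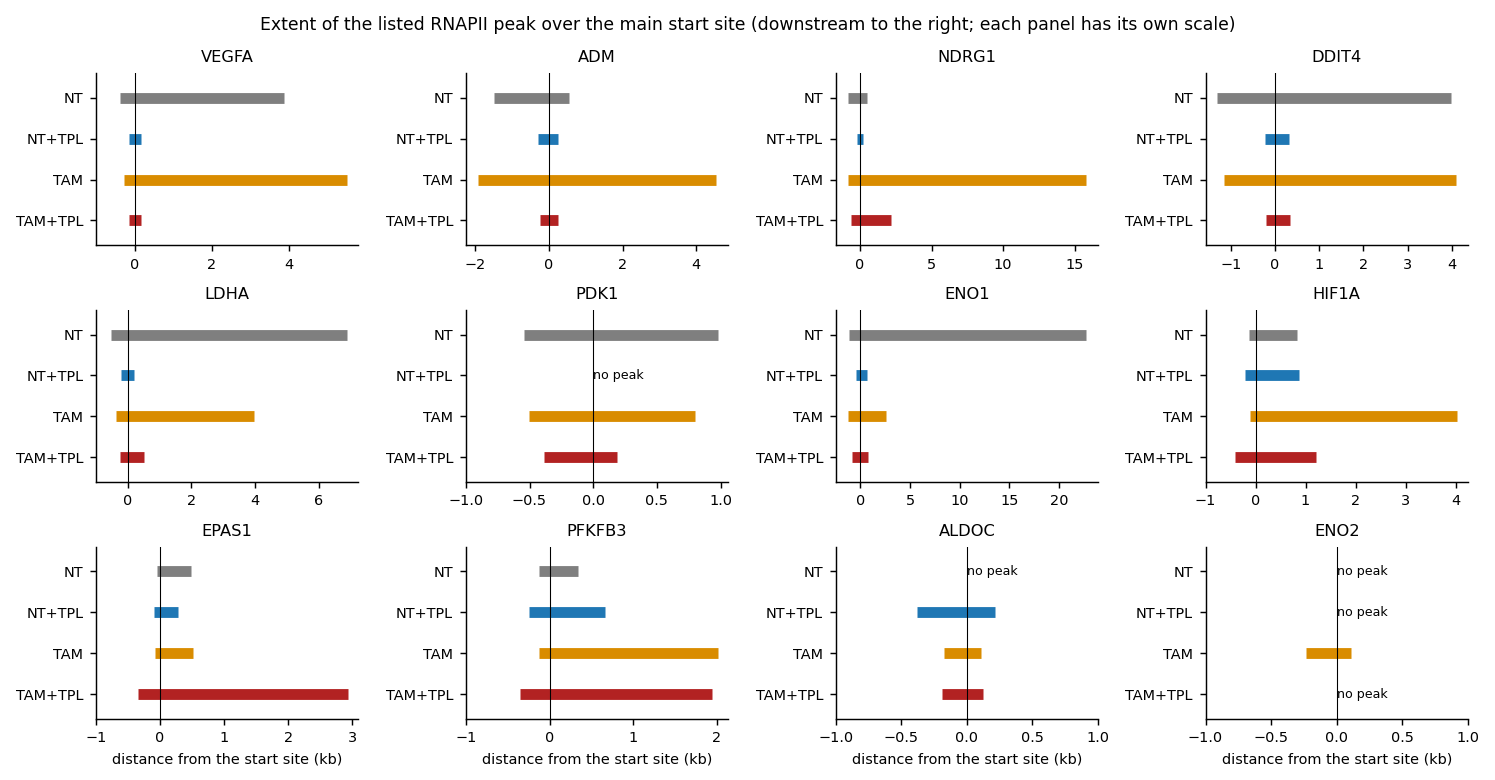
Extent of the listed RNAPII peak over the main TSS (distance in kb, downstream to the right, each panel on its own scale) in the 4 lists for 12 members. The bars of VEGFA, ADM, NDRG1, DDIT4, LDHA and ENO1 are shorter in the TPL lists, those of PFKFB3 in NT+TPL and EPAS1 in TAM+TPL are longer than with DMSO, and ALDOC lacks a peak in NT and ENO2 outside TAM.

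Other genes of the same pathways were taken from 2 pathway lists, which like the members were chosen with earlier results of these data known. Of 37 other hypoxia genes, 36 were tested, of which 6 rose and 11 fell with TPL in NT cells and 4 rose and 13 fell in TAM cells at an adjusted p of at most 0.05. These are 16.7% and 30.6% in NT, beside 23.5% and 24.1% of all genes, and 11.1% and 36.1% in TAM cells, beside 20.4% and 23.5%. Their medians were -0.01 and -0.12. The secreted lipase inhibitor ANGPTL4 fell the most in TAM cells, from 252 and 236 FPKM with DMSO to 19.5 and 19.3 with TPL, beside 133.9 and 125.1 against 19.2 and 17.1 in NT cells (log2 -3.91 and -2.80, adjusted p = 4.56e-07 and 1.3e-06). The repressor BHLHE40 fell in NT and TAM cells (log2 -3.17 and -2.99, adjusted p = 3.81e-05 and 5.51e-05). The ubiquitin ligase component WSB1 rose by 2.10 and 1.31 (adjusted p = 9.62e-06 and 0.000193). With DMSO, 7 were higher (19.4%, beside 5.16% of all genes) and 1 lower (2.78%, beside 5.59%) in TAM than NT cells. With TPL 3 were higher and 3 lower, 8.33% each, beside 4.82% and 7.06%. Of 29 other sugar metabolism genes, 22 were tested, of which 7 rose and 5 fell in NT and 4 rose and 5 fell in TAM cells with TPL. These are 31.8% and 22.7% in NT, beside 23.5% and 24.1% of all genes. In TAM cells they are 18.2% and 22.7%, beside 20.4% and 23.5%. The pyruvate dehydrogenase phosphatase PDP1 fell in both (log2 -2.82 and -3.14, adjusted p = 4.56e-05 and 2.3e-05). Between TAM and NT cells 3 were lower with DMSO (13.6%, beside 5.59% of all genes). With TPL 1 was higher (4.55%, beside 4.82%) and 6 were lower (27.3%, beside 7.06%), including TKT (-1.13, adjusted p = 0.00103), the transketolase of the pentose phosphate pathway.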

How the data were processed

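The 8 RNA-Seq libraries (4 groups of 2 biological replicates, grouped by the labels, TPL at 125 nM) were read as the expected counts that the authors made by aligning reads to transcripts with Bowtie2 and estimating abundance with RSEM. The deposited FPKM values come from the same run and were used for levels and ratios. The authors called the RNAPII peaks, deposited as starts and ends without scores, over input with MACS (version 1.4.2 per the labels) on hg19, after alignment with SOAP2, and kept those with a TSS; starts count from 0 there and from 1 here. Depth was 7461309 to 8349448 counts per library.

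The 23604 listed entries were given symbols through gene IDs (21077) or RefSeq accessions (2384), which left 143 without one. Counts were summed per gene, rounded and then tested in edgeR 4.0.16 under R 4.3.3 (TMM, filterByExpr, quasi-likelihood, Benjamini-Hochberg over 15763 genes; biological coefficient of variation 0.179). TSSs came from GENCODE release 44 on GRCh37, and promoters from RefSeq (GRCh38.p14), placed on GRCh37 by exact match. The 4 contrasts and their interaction used all 8 libraries. The script was tested on simulated data. Alternatives were DESeq2 1.42.0, limma 3.58.1 on log2(FPKM + 1) and log2(FPKM + 0.1), scalings, filters, thresholds, a replicate block and leaving out each library.

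Named in full are members called at the study's thresholds, the 4 largest rises and falls per contrast at an adjusted p of 0.05, and VEGFA, EPAS1, HIF1A and GAPDH. Members and lists were chosen with earlier results of these data known. Marker lists were basal epithelium, luminal hormone receptor (ESR1 at 36.9 to 249 FPKM, PGR at most 0.01), fibroblast (summed at 0.56 to 6.23 FPKM), leukocyte (47.4 to 474, nearly all CD68) and endothelium (0.46 to 1.73). Whether the ESR1 reads came from the fusion of Src with the oestrogen receptor was not tested. ChIP signal and inputs were not used here.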

Additional observations from a re-analysis of the deposited data

Results flagged for a closer look

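The response to TPL differed between TAM and NT cells, by the interaction test of edgeR, for EGLN3 (difference in log2 fold change -2.70, adjusted p = 0.0407), ENO2 (-2.37, adjusted p = 0.0422) and PFKFB3 (-2.08, adjusted p = 0.0024). All 3 rose in NT cells and had no change past the test in TAM cells. The PFKFB3 difference kept an adjusted p of at most 0.05 in every alternative that gave one, whereas that of EGLN3 was lost in 8 and that of ENO2 in 12 of 18, with adjusted p of up to 0.202 and 0.227.

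For a further 4 members, both NT+TPL libraries lay above both NT libraries in FPKM while both TAM+TPL libraries lay below both TAM libraries. The share of all genes with this pattern was not counted, so the 4 are given as a description of single genes. The difference in log2 fold change was -1.06 for NDRG1 (adjusted p = 0.0943), -0.71 for BNIP3L (adjusted p = 0.36), -0.68 for SLC2A1 (adjusted p = 0.306) and -2.22 for PFKFB4 (adjusted p = 0.0504), so that none of these differences passed the test.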

How the results depend on the processing

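With 2 libraries per group, calls at the strict thresholds (adjusted p of 0.001, log2 fold change of 1.2) rested on few degrees of freedom, and CA9, EGLN3 and ENO2 rested on few counts in NT cells. No member's named value changed sign under any alternative. Of the 572 values of single members outside the fits without a library, 512 stayed on their side of the threshold, 17 passed it and 43 no longer did, and in those fits the numbers were 339, 9 and 44.

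The number of members called for TPL in NT cells, 8, was 24 at an adjusted p of 0.05, 4 with the entries as deposited and 2 with only the compared groups fitted, and leaving out a library gave 3 to 11. For TPL in TAM cells, 7 became 18 at 0.05, 2 with the entries as deposited, 4 with limma on either pseudocount and 4 with the replicate block, and leaving out a library gave 2 to 7. For TAM against NT cells with DMSO, 7 became 14 at 0.05 (CA9 included), 3 with the entries as deposited and 4 with equal GAPDH, and leaving out a library gave 3 to 9. With TPL, 1 became 15 at 0.05 (CA9 included), 7 at 0.05 with a log2 fold change of 1.2, 4 with DESeq2 and 4 with no filter, and leaving out a library gave 0 (without TAM+TPL replicate 2) to 4 (without NT+TPL replicate 1). For the interaction, 0 became 3 at 0.05 with or without the fold limit, 1 with DESeq2 and 2 with no filter, and leaving out a library gave 0 to 1, the latter without either NT+TPL library. The cause of these changes was not tested, beyond the looser thresholds and the fewer libraries that define them.

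Members with a peak in NT and none in TAM, 0 in the main count, were 1 with the main TSS alone and 2 when the TSS had to lie 100 bases inside. The latter rule gave 3 in place of 5 for peaks lost with TPL in TAM cells and 1 in place of 0 for peaks gained. Of 35 NT peaks, 7 in place of 5 were lost with TPL by the main TSS alone, PFKM and PDK1 being added. That compares with 23.2% of all genes with a peak there. The 100-base rule also gave 7 of 35, against 25.9%. Same-numbered libraries did not deviate together (correlations from -0.273 to 0.089), so the numbers were taken as names. The -0.273 was between NT and NT+TPL, whose same-numbered libraries tended to deviate in opposite directions, and its cause was not tested. The replicate block gave 8, 5, 1 and 0 calls in the other contrasts.

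Equal GAPDH gives no value for GAPDH, fitting the compared groups alone gives none for the interaction, and a minimum of 10 counts in every library gives none for CA9, EGLN3 and ENO2. PFKFB4 has none with the entries as deposited.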
